A study of Homo sapiens with 6 samples.

Results

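The genes described here encode the enzymes and carriers that build sugar chains in the Golgi apparatus: glycosyltransferases, sulfotransferases and nucleotide sugar transporters of the SLC35 family. They were measured in THP-1 cells, a human line from acute monocytic leukaemia. One group of 3 libraries came from cells given 1 µM monensin for 16 h, and the other 3 came from cells with no exposure, for which the labels name no vehicle. Both groups were grown in RPMI medium with 10% FBS and 5% L-Glut, and both are the same line, so they stand for 1 genetic background. Monensin is a polyether ionophore that exchanges sodium ions for protons across membranes and is widely used to disturb the Golgi apparatus.

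Members were chosen by gene symbol, from name stems such as MGAT, B4GALT, GALNT, ST3GAL, FUT, CHST, EXT and SLC35, without pseudogenes and antisense names. The choice was made with earlier results of these data known. GLCE, HS2ST1, UAP1 and UAP1L1 were added by name. This gave 170 of the 58395 genes counted. Of these, 169 are protein-coding, and ST6GAL2-IT1, a sense intronic transcript whose name matches the pattern, was at 0 in every library.

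Proteins passing through the Golgi have their N-linked chains trimmed by mannosidases and rebuilt by branching enzymes. Mucin-type O-linked chains begin with the addition of GalNAc to serine or threonine, and heparan, chondroitin and dermatan sulfate chains of proteoglycans begin with xylose. Galactose, GlcNAc, fucose, sialic acid and sulfate are then added from activated donors that SLC35 carriers bring in from the cytosol. On monocytes, fucosylated and sialylated chains serve as ligands for selectins during rolling on vessel walls. When the Golgi is disturbed, cells are known to raise groups of these genes through a Golgi stress response, of which the transcription factor TFE3 drives one branch.

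Gene counts came to between 22975888 and 24774546 per monensin library and between 24159573 and 25710513 per untreated library. All 12 monocytic markers examined were detected, and their summed level was 2559 to 2689 CPM, the reads of a gene scaled to a common library size in monensin libraries and 2322 to 2409 CPM in untreated libraries. Of these markers 7 rose and 3 fell. Epithelial and erythroid markers were at 0 in all 6 libraries. The 5 B cell markers summed to 7.21 to 8.70 CPM with monensin and 4.93 to 5.50 CPM in untreated cells, and T cell and fibroblast markers stayed at or under 1.32 CPM. The part of these marker levels in the results below was not tested. In bulk RNA fewer cells making a transcript and less of it per cell cannot be told apart.

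Monensin changed most of the detected members, about as many upward as downward. Of the 170 members, 116 had enough reads to be tested and 54 did not. Of the 54, 24 had no read in any library and 30 had some, with at most 61 reads over all 6 libraries. Among the 116 tested, 46 rose, 47 fell and 23 were not called, at an adjusted p under 0.05 in edgeR's quasi-likelihood test with Benjamini-Hochberg adjustment over all genes. Of the tested members 39.7% thus rose and 40.5% fell, or 80.2% in either direction, against 34.1% and 33.7% of all 16542 genes tested, or 67.8%. The monensin and untreated values did not overlap for 100 of the tested members (86.2%), and for 71.1% of all tested genes.

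Changes of members were about as wide as those of other genes. The median log2 fold change was -0.12 over the tested members, with quartiles of -0.38 and 0.46, and 0.02 over all tested genes, with quartiles of -0.34 and 0.45. The median absolute change was 0.39 on the log2 scale in each. A change of at least 2-fold, counted here in called genes whose log2 fold change is 1 or more in size, was reached upward by 13 tested members and downward by 4. Over all genes tested, 9.41% were called at least 2-fold higher and 3.83% at least 2-fold lower.

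**Figure D1:**
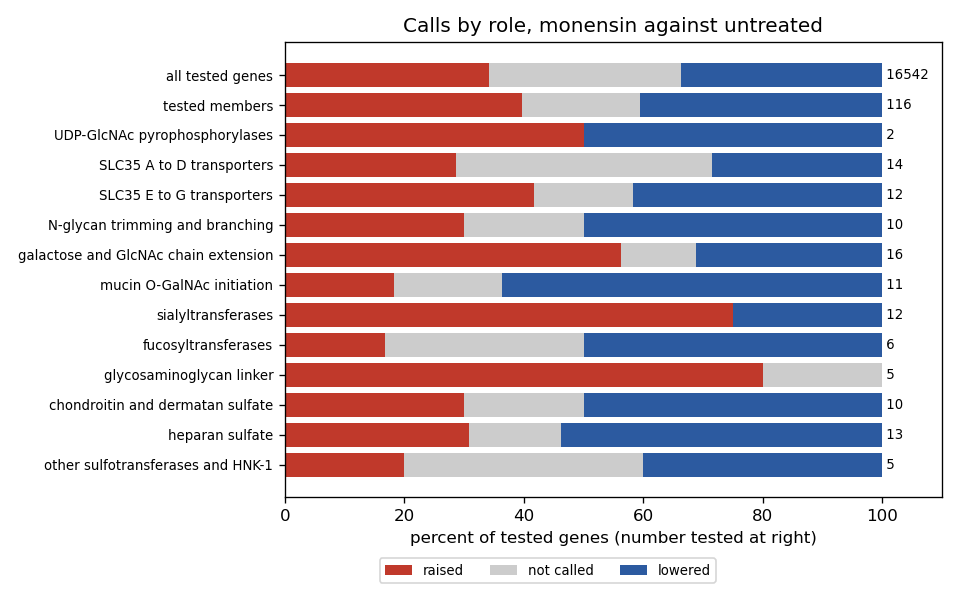
Percent of tested genes called higher (left, red), not called (grey) and called lower (right, blue) with monensin against untreated cells, for all tested genes, the tested members and each role, with the number tested at the right. Sialyltransferases have the largest upward share of the roles with more than 5 tested genes (9 of 12) and mucin-type initiation enzymes the largest downward share (7 of 11).

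The summed output of the whole group barely differed. Scaled per kilobase of exon so that genes can be added, all members together came to 904 ± 4.01 CPM per kb in monensin libraries and 889 ± 3.00 CPM per kb in untreated libraries (mean ± SD, n = 3 each), a ratio of 1.02. The composition moved more than the sum. UDP-GlcNAc pyrophosphorylases stood at 72.9 ± 1.01 CPM per kb with monensin and 33.6 ± 0.190 in untreated cells, a ratio of 2.17, and sialyltransferases at 65.4 ± 1.02 CPM per kb with monensin and 59.4 ± 1.27 untreated, a ratio of 1.10. Fucosyltransferases had 52.7 ± 1.52 CPM per kb with monensin and 67.3 ± 0.688 untreated, a ratio of 0.783. Mucin-type initiation enzymes had 51.1 ± 1.60 CPM per kb with monensin and 61.7 ± 1.29 untreated, a ratio of 0.829. The summed level of N-glycan trimming and branching enzymes was nearly equal, at 119.33 ± 2.37 CPM per kb with monensin and 119.4 ± 0.220 untreated. Even so, 8 of its 10 tested members were called, against 67.8% of all genes tested.

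The promoters of several members carry a short motif that has been tied to the TFE3 branch of the Golgi stress response, ACGTGGC, the core of the Golgi apparatus stress response element. Promoter windows from RefSeq on GRCh38.p14, 250 bases before to 50 after each transcription start, were found for 128 members. Read on both strands, ACGTGGC was in a window of 10 of these members (7.81%), against 4.78% of the 15842 genes with windows. It was in 4 of the 33 raised members that have a window (CHST6, MGAT1, SLC35B2 and ST3GAL5) and in 2 of the 40 lowered ones (B4GALT2 and CHSY1). The raised members UAP1L1 and ST3GAL1 had no window, so they were not searched. ST3GAL6 and FUT1, also raised and listed for the TFE3 branch, were not among the members with this motif. The related palindrome CACGTG, the E-box, can overlap ACGTGGC and was in 12.5% of members with windows, against 10.9% of all genes with windows. By gene, the E-box was in 2 of the 33 raised members and 7 of the 40 lowered members. A match describes only these letters and is not evidence of binding. Windows of 3 raised members and of B4GALT2, which fell while carrying both motifs, are shown to let the motif be seen in its context, each 5′ to 3′ on the gene's strand with the motifs in capitals. They are chr5:180802757-180803056 (minus strand, 1 of 6 windows of MGAT1), chr2:85888698-85888997 (minus strand, 1 of 5 windows of ST3GAL5), chr16:75495392-75495691 (minus strand, the window of CHST6) and chr1:43979687-43979986 (plus strand, 1 of 2 windows of B4GALT2).
MGAT1: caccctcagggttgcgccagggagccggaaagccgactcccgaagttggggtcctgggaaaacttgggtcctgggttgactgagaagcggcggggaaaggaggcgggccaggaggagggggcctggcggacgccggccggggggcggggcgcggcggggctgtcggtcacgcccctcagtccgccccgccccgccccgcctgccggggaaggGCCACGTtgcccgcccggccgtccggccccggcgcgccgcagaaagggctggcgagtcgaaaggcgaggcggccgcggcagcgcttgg
ST3GAL5: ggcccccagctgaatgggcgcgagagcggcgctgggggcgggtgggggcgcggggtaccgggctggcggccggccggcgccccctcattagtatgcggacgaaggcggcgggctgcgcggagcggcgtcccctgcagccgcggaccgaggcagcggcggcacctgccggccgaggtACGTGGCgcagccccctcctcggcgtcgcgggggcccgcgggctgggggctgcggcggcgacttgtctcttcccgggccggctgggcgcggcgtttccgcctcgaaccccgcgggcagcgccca
CHST6: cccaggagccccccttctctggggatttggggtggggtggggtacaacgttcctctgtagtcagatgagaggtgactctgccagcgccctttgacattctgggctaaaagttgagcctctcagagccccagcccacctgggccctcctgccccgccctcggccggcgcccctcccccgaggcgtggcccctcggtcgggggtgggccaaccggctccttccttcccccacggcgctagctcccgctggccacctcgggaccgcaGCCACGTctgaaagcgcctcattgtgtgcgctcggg
B4GALT2: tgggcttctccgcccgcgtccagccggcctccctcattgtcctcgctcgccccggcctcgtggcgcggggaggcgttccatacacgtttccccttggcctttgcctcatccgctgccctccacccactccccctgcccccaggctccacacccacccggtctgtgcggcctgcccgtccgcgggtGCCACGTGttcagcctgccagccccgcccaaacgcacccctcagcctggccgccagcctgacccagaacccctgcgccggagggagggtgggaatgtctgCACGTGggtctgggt

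The 2 members grouped as pyrophosphorylases of UDP-GlcNAc, the donor for branching and chain extension, moved apart. UAP1L1, a paralogue of the pyrophosphorylase UAP1, lies on chromosome 9 from 137077501 to 137084539 (GRCh38, plus strand). It had 279, 291 and 295 CPM in the monensin libraries, against 73.1, 68.8 and 73.8 CPM in the untreated libraries. Every monensin library was far above every untreated one, and the log2 fold change was 2.00 ± 0.05 (SE; edgeR adjusted p = 1.26e-14). At 54.5 ± 1.60 CPM per kb it was the member with the highest mean level per length in monensin cells, against 13.6 ± 0.509 CPM per kb in untreated cells. UAP1 itself, which catalyses the last step of UDP-GlcNAc synthesis, was at 65.6, 64.4 and 58.9 CPM with monensin and 67.8, 70.5 and 68.4 CPM untreated. Its small fall (-0.13 ± 0.05, edgeR adjusted p = 0.0391) was not called after adjustment for GC content and exon length (0.01), which takes out a smooth trend per library, under total counts alone, under a stricter filter or without any of 4 single libraries (monensin 2 or 3, untreated 2 or 3). UAP1L1 gave 4.59 ± 0.383 reads for each read of UAP1 in monensin libraries and 1.04 ± 0.0591 in untreated libraries (mean ± SD, n = 3 each).

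Of the 14 tested SLC35 carriers of the A to D subfamilies, 4 rose, 4 fell and 6 were not called. These carriers bring nucleotide sugars or sulfate donor into the Golgi or endoplasmic reticulum. Raised and lowered carriers made up 28.6% each, against 34.1% and 33.7% of all genes tested. SLC35D2, a carrier of UDP-GlcNAc, had 6.54, 5.40 and 5.91 CPM with monensin and 1.84, 2.44 and 2.43 CPM in untreated cells. Its log2 fold change was 1.41 ± 0.14 (edgeR adjusted p = 3.83e-07), though 46.8% of its exonic bases lie under AL160269.1 on the same strand, so its reads are uncertain. SLC35A2, the UDP-galactose carrier, had 44.1, 42.8 and 42.5 CPM with monensin and 28.2, 25.9 and 28.9 CPM untreated, without overlap (0.64 ± 0.06, edgeR adjusted p = 8.97e-08). SLC35B2, which carries the sulfate donor PAPS, was the carrier with the highest level per length, at 37.5 ± 0.969 CPM per kb with monensin and 32.8 ± 0.747 untreated. It rose by a log2 fold change of 0.19 ± 0.05 (edgeR adjusted p = 0.00153), and stood at -0.04 after adjustment for GC content and exon length.

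Carriers that fell include those for xylose and glucuronic acid donors. SLC35B4, a carrier of UDP-xylose and UDP-GlcNAc, was at 36.6, 36.4 and 35.6 CPM in monensin libraries and 46.0, 54.0 and 52.8 CPM in untreated libraries (-0.49 ± 0.06, edgeR adjusted p = 4.10e-06). SLC35D1, a carrier of UDP-glucuronic acid and UDP-GalNAc in the endoplasmic reticulum, had a log2 fold change of -0.45 ± 0.07 (edgeR adjusted p = 6.76e-05), or -0.24 after adjustment for GC content and exon length. The CMP-sialic acid carrier SLC35A1 averaged 19.3 ± 0.361 CPM with monensin and 17.8 ± 1.00 CPM untreated and was not called, with 55.5% of its exonic bases under another gene on the same strand. The GDP-fucose carrier SLC35C1 (25.7 ± 0.520 CPM with monensin, 28.0 ± 0.200 CPM untreated) and the UDP-GlcNAc carrier SLC35A3 (19.7 ± 2.02 CPM with monensin, 21.4 ± 0.350 CPM untreated) were not called either. After adjustment for GC content and exon length the value of SLC35A3 turned to 0.17.

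In the E to G subfamilies, for most of which no substrate has been settled, 12 of 17 members were tested. Of these, 5 rose and 5 fell, 41.7% each, against 34.1% and 33.7% of all genes tested. SLC35F3, known as a thiamine transporter, had 1.48, 1.56 and 1.67 CPM with monensin and 0.401, 0.515 and 0.566 CPM untreated (log2 fold change 1.66 ± 0.24, edgeR adjusted p = 1.59e-05). SLC35F1 moved the other way, with 0.156, 0.320 and 0.386 CPM in monensin libraries and 1.16, 1.24 and 0.890 CPM in untreated libraries (-1.93 ± 0.33, edgeR adjusted p = 7.86e-05). Both are low-count genes, with 116 and 21 reads over the monensin libraries and 36 and 80 over the untreated ones. SLC35E1 had the highest level per length of this set, at 18.2 ± 0.481 CPM per kb with monensin and 11.5 ± 0.557 untreated, and rose by 0.66 ± 0.05 on the log2 scale (edgeR adjusted p = 6.54e-09). SLC35E2 rose and SLC35E2B fell, but the 2 are near-identical copies whose reads are uncertain.

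**Figure D2:**
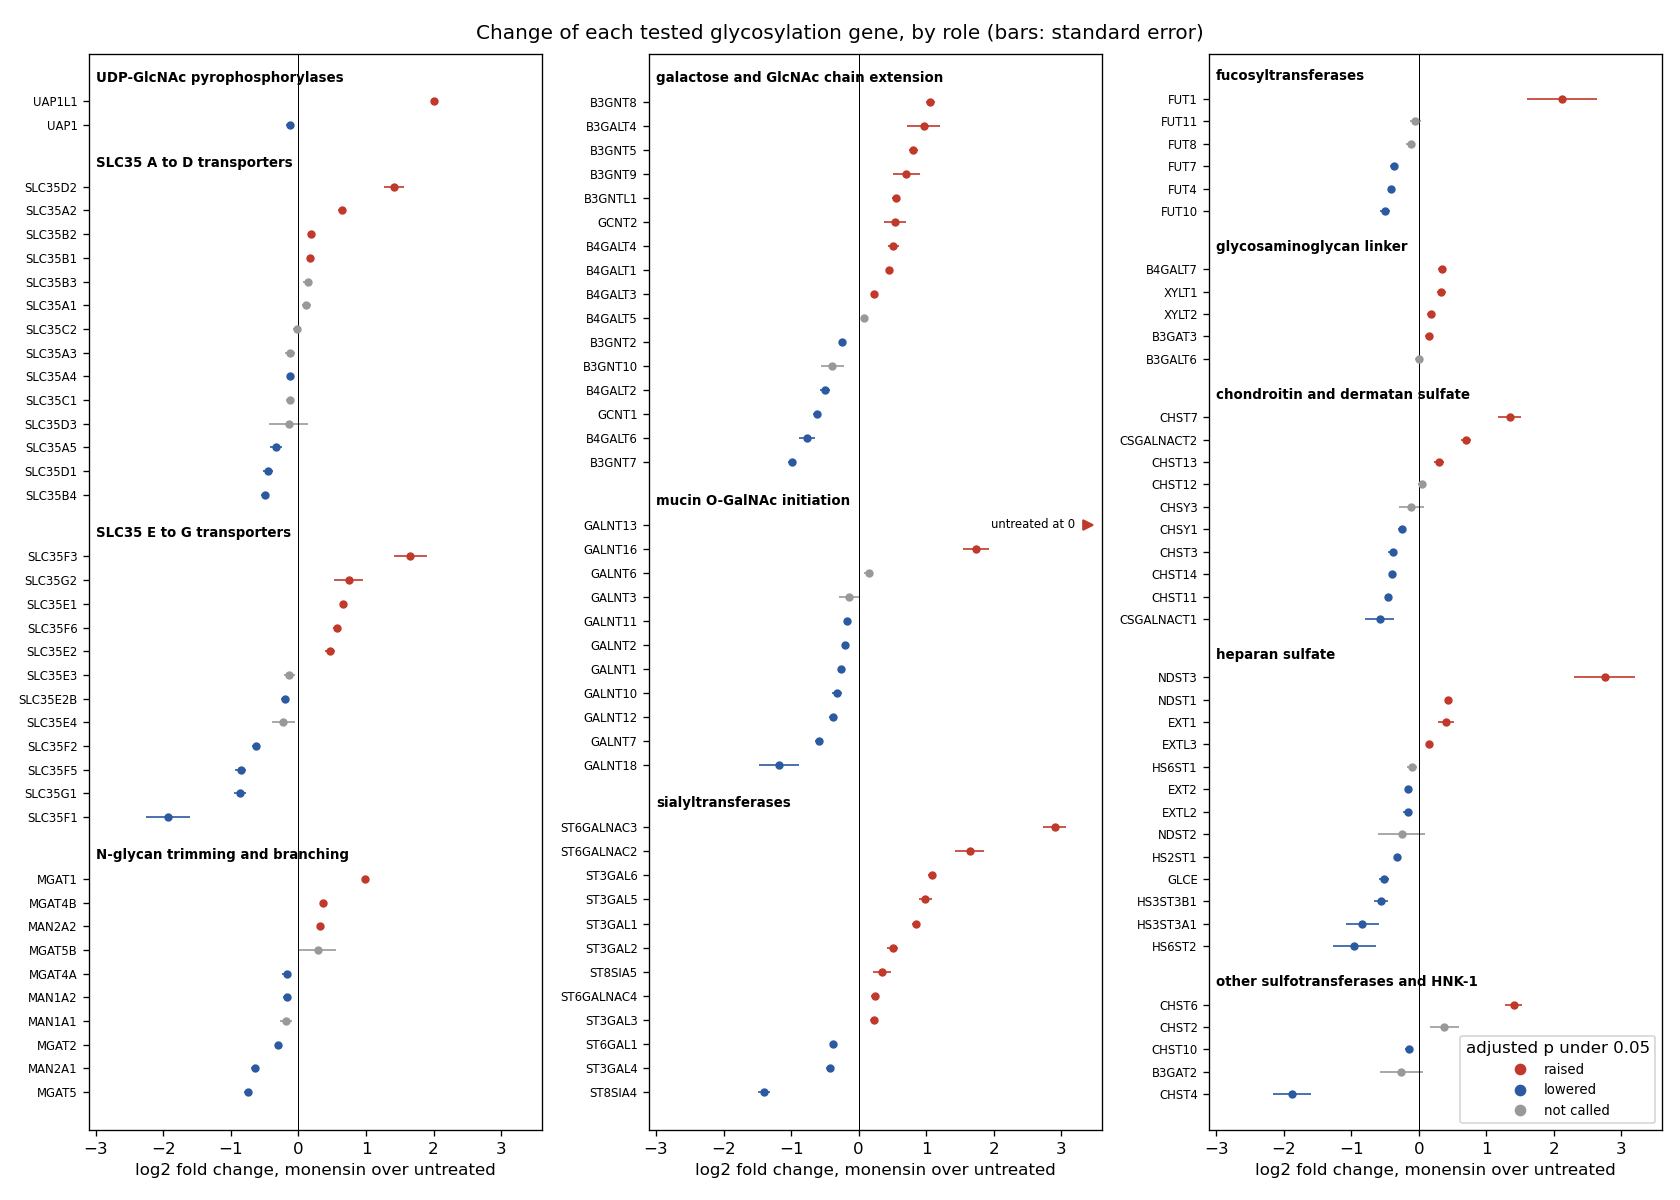
Log2 fold change, monensin over untreated, of the 116 tested members grouped by role (points, with bars for the standard error, coloured by call at an adjusted p under 0.05). The arrow marks GALNT13, which had no read in untreated libraries. Most roles hold members on both sides of 0, with UAP1L1, ST6GALNAC3 and NDST3 among those farthest to the right and SLC35F1, CHST4 and ST8SIA4 farthest to the left.

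N-glycan processing enzymes moved in both directions. Of 10 tested trimming and branching enzymes, 3 rose (MGAT1, MGAT4B and MAN2A2) and 5 fell, and 3 fell under total counts alone and after adjustment for GC content and exon length. MGAT1, the GlcNAc-transferase that opens the way to hybrid and complex chains, lies on chromosome 5 from 180784782 to 180815652 (GRCh38, minus strand). It had 276, 288 and 295 CPM with monensin, against 145, 144 and 143 CPM in untreated cells. The groups were well apart, with a log2 fold change of 0.99 ± 0.04 (edgeR adjusted p = 1.18e-11). MGAT2, which adds the next branch and has the highest level per length in the role, was lower, at 117, 124 and 114 CPM with monensin and 150, 147 and 144 CPM untreated (-0.31 ± 0.04, edgeR adjusted p = 1.46e-05). On the opposite strand AL139099.1 covers 91.9% of the exonic bases of MGAT2, and whether reads were counted by strand is not stated in the labels or files.

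Later branching and mannose trimming enzymes were split, with MGAT5 and MAN2A1 showing the largest falls. MGAT5, which starts the branch favoured for long lactosamine chains, had 41.8, 41.4 and 37.8 CPM in monensin libraries and 62.8, 70.0 and 70.6 CPM in untreated libraries. It did not overlap between groups and had the lowest change of the role (-0.75 ± 0.06, edgeR adjusted p = 2.32e-08). MAN2A1, an alpha-mannosidase that trims the chain after MGAT1 has acted, had 63.3, 62.1 and 56.5 CPM with monensin and 90.1, 95.5 and 99.7 CPM untreated (-0.65 ± 0.06, edgeR adjusted p = 4.75e-08). Its isozyme MAN2A2 rose (0.33 ± 0.05, edgeR adjusted p = 1.83e-05), as did the branching enzyme MGAT4B (0.37 ± 0.05, edgeR adjusted p = 1.58e-05). MGAT4A and MAN1A2 each fell by 0.17 on the log2 scale, and both values turned to 0.12 after adjustment for GC content and exon length, when MAN2A1 stood at -0.34 and MGAT4B at 0.16.

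Chain extension with galactose and GlcNAc was the role with the most members tested and called, 9 raised and 5 lowered of 16 tested. These are 56.25% and 31.25%, against 34.1% and 33.7% of all genes tested. The summed level of the role was lower with monensin, at 176.05 ± 2.658 CPM per kb against 185.9 ± 1.565 untreated, a ratio of 0.947. B4GALT1, the main galactosyltransferase of N-glycans, had 81.9, 85.8 and 81.3 CPM with monensin and 58.3, 61.8 and 61.9 CPM untreated, with no overlap (0.45 ± 0.05, edgeR adjusted p = 6.21e-07). B4GALT2, a related enzyme on chromosome 1 from 43978943 to 43991170 (GRCh38, plus strand), had 34.3, 37.3 and 43.2 CPM with monensin and 54.6, 53.6 and 53.9 CPM untreated (-0.50 ± 0.07, edgeR adjusted p = 1.03e-05). Its promoter window shown above holds ACGTGGC overlapping an E-box, 65 bases before the start. B4GALT6, which makes the glycolipid precursor lactosylceramide, fell by 0.76 on the log2 scale (SE 0.11, edgeR adjusted p = 2.14e-05), and B4GALT5, which shares that activity, was not called (137 ± 5.51 CPM with monensin, 129 ± 1.66 untreated).

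The GlcNAc-transferases that lengthen lactosamine chains split in the same way. B3GNT8 had 29.8, 28.5 and 29.6 CPM in monensin libraries, against 13.8, 13.5 and 14.8 CPM in untreated libraries (1.06 ± 0.06, edgeR adjusted p = 8.89e-10). B3GNT7, known for its part in keratan sulfate chains, had 76.1, 81.7 and 90.6 CPM with monensin and 161, 165 and 165 CPM untreated (-0.98 ± 0.06, edgeR adjusted p = 4.17e-10). Every monensin library was thus below every untreated one for B3GNT7 and above for B3GNT8. B3GNT2, a main polylactosamine synthase with the highest level per length of the role averaged over both groups, stood at 31.2 ± 1.24 CPM per kb with monensin and 37.1 ± 1.19 untreated (-0.25 ± 0.05, edgeR adjusted p = 0.000259). B3GNT5, which starts lacto-series glycolipids, rose (0.81 ± 0.07, edgeR adjusted p = 3.27e-08). GCNT1, which makes the branched core of mucin-type chains, had 26.9 ± 0.700 CPM with monensin and 41.2 ± 1.02 CPM untreated (-0.62 ± 0.05, edgeR adjusted p = 7.13e-08). After adjustment for GC content and exon length, GCNT1 stood at -0.35, B3GNT2 at -0.10 and B4GALT2 at -0.75.

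Initiation of mucin-type chains leaned downward: of 11 tested GALNT enzymes, which attach the starting GalNAc, 7 fell and 2 rose. The shares were 63.6% and 18.2%, against 33.7% and 34.1% of all genes tested. GALNT1, the member of this set with the highest level per length, had 95.6, 92.6 and 86.8 CPM with monensin and 107, 112 and 109 CPM untreated (-0.26 ± 0.05, edgeR adjusted p = 0.000178), and was at -0.01 after adjustment for GC content and exon length. GALNT7, which acts on peptides that already carry GalNAc, had 36.7, 36.4 and 32.3 CPM with monensin and 51.2, 53.3 and 54.0 CPM untreated (-0.59 ± 0.06, edgeR adjusted p = 2.87e-07). For both, the groups did not overlap. GALNT7 was at -0.33 after that adjustment. GALNT2, GALNT10, GALNT11 and GALNT12 fell by 0.17 to 0.38 on the log2 scale.

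The GALNT members past 2-fold were all scarce. GALNT16 had 3.19, 2.60 and 3.04 CPM with monensin and 0.882, 1.03 and 0.728 CPM untreated (1.74 ± 0.20, edgeR adjusted p = 1.15e-06). GALNT13 had 41 reads over the monensin libraries and 0 over the untreated ones, at least 14.3-fold higher against a floor of 3 reads over the group. The 95% exact Clopper-Pearson interval on the split of reads, which covers counting error, begins lower, at 11.1-fold. GALNT18 was lower, with 0.390, 0.280 and 0.471 CPM in monensin libraries and 0.842, 0.729 and 1.01 CPM in untreated libraries (-1.18 ± 0.30, edgeR adjusted p = 0.00273). GALNT4 was too low to be tested, with 3 reads in all under monensin and 19 untreated, a ratio of 0.165 (95% exact Clopper-Pearson interval on the split of reads 0.0313 to 0.561, counting error only).

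Sialyltransferases, which cap chains with sialic acid, were all called: 9 of 12 tested rose and 3 fell. ST6GALNAC3, which adds sialic acid to GalNAc in already sialylated chains, had 6.0, 6.16 and 6.08 CPM with monensin and 0.601, 1.07 and 0.769 CPM in untreated cells. This was the largest rise in the role (2.90 ± 0.18, edgeR adjusted p = 9.31e-10), without overlap. Replicates were tight only with monensin, and the untreated level rests on 59 reads, against 450 with monensin. ST3GAL1, which sialylates galactose on mucin-type chains, had 106, 106 and 100 CPM with monensin and 53.8, 58.5 and 61.0 CPM untreated (0.85 ± 0.05, edgeR adjusted p = 1.38e-09). ST3GAL6, which caps lactosamine and can contribute to sialyl Lewis x, had 51.3, 47.9 and 47.2 CPM with monensin and 23.7, 22.7 and 22.7 CPM untreated (1.08 ± 0.06, edgeR adjusted p = 1.92e-10). ST3GAL5, which makes the ganglioside GM3, lies on chromosome 2 from 85837120 to 85905199 (GRCh38, minus strand) and carries ACGTGGC 74 bases before the start in the window shown above. It had 11.8, 11.9 and 10.5 CPM with monensin and 5.49, 5.45 and 6.35 CPM untreated (0.99 ± 0.10, edgeR adjusted p = 1.93e-07).

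The 3 sialyltransferases that fell act on lactosamine or extend sialic acid itself. ST3GAL4, which shares its substrates with ST3GAL6 and had the highest level per length of the role averaged over both groups, was at 78.0, 76.9 and 84.5 CPM with monensin and 113, 108 and 101 CPM untreated (-0.43 ± 0.05, edgeR adjusted p = 3.41e-06). ST6GAL1, which caps N-glycans with sialic acid, fell by 0.37 on the log2 scale (SE 0.05, edgeR adjusted p = 1.98e-05). ST8SIA4, a polysialyltransferase, had 5.22, 4.84 and 4.97 CPM in monensin libraries and 12.9, 13.9 and 12.9 CPM in untreated libraries. It had the largest fall of the role (-1.40 ± 0.09, edgeR adjusted p = 1.23e-09). ST6GALNAC2 rose from few reads (134 with monensin, 42 untreated; 1.64 ± 0.22, edgeR adjusted p = 7.12e-06), and 38.5% of its exonic bases lie under another gene on the same strand. The rise of ST6GALNAC4 (0.24) turned to -0.08 after adjustment for GC content and exon length.

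Of 6 tested fucosyltransferases, 3 fell and 1 rose. FUT4, which fucosylates lactosamine in myeloid cells, had 179, 178 and 163 CPM with monensin and 225, 240 and 229 CPM untreated, without overlap (-0.41 ± 0.05, edgeR adjusted p = 1.06e-06). FUT7, which completes sialyl Lewis x on leukocytes, had 34.6, 32.2 and 35.2 CPM with monensin and 46.9, 42.7 and 41.5 CPM untreated (-0.36 ± 0.06, edgeR adjusted p = 7.26e-05). Other genes cover 27.6% of the exonic bases of FUT7 on its own strand and 39.2% on the opposite one, and its change was -0.69 after adjustment for GC content and exon length. FUT10 fell as well (-0.50 ± 0.07, edgeR adjusted p = 2.01e-05), while FUT8, which adds the core fucose of N-glycans, was not called at 36.8 ± 1.42 CPM with monensin and 40.0 ± 3.54 CPM untreated.

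Against these, 2 fucosyltransferases that were scarce in untreated cells had more reads with monensin. FUT1, which makes the H antigen, was the raised one, with 41 reads over the monensin libraries and 9 over the untreated ones (2.12 ± 0.52, edgeR adjusted p = 0.00203). The stricter filter leaves it untested, and the number of raised fucosyltransferases was 2 without a filter and without monensin replicate 2 or any single untreated replicate. FUT3, which makes Lewis antigens, was too low to be tested, with 36 reads under monensin and 3 untreated, a ratio of 12.6 (95% exact Clopper-Pearson interval 3.97 to 63.7, counting error only). FUT3 reads were uneven, with 18 of the 36 in monensin replicate 1.

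**Figure D3:**
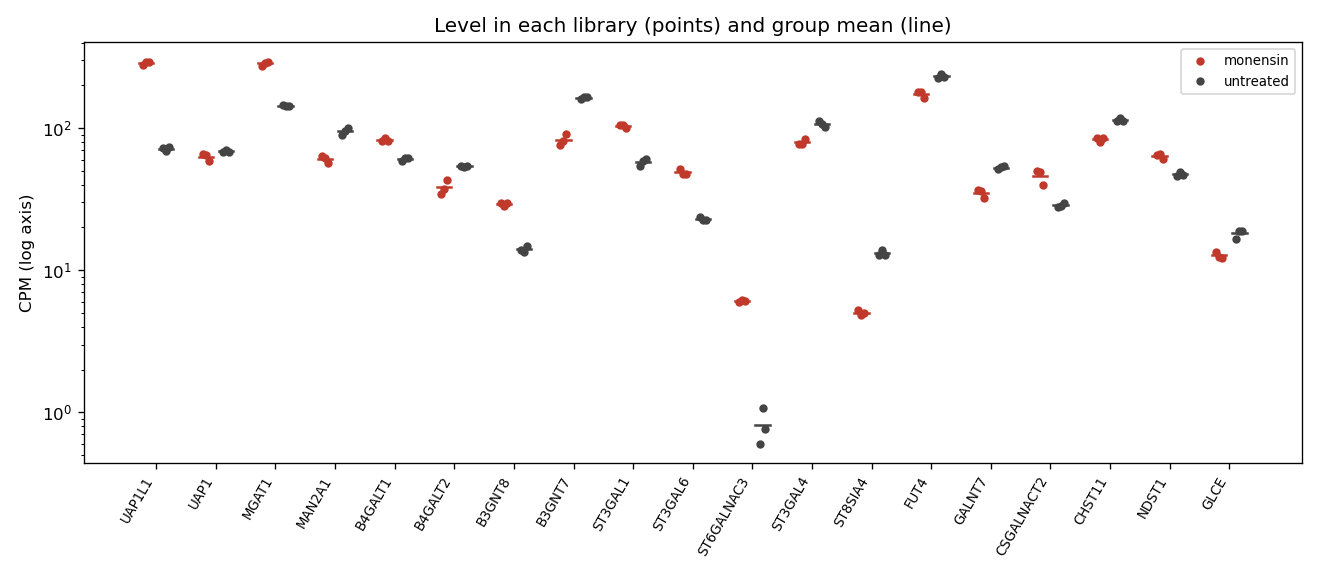
Level of selected members in each library in CPM on a log axis (points; monensin red and left, untreated grey and right), with the group mean as a line. UAP1L1, MGAT1, ST3GAL1, ST3GAL6 and ST6GALNAC3 lie higher with monensin in every library, and B3GNT7, ST8SIA4, GALNT7 and GLCE lie lower in every library.

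The enzymes that build the linker shared by heparan, chondroitin and dermatan sulfate chains leaned upward. Raised were 4 of 5 (34.1% of all genes tested) and lowered 0 (33.7% of all genes tested). The remaining member, B3GALT6, had 63.1 ± 2.28 CPM with monensin and 63.0 ± 2.87 untreated. B4GALT7, which adds the galactose after xylose, had 23.4, 23.0 and 23.0 CPM with monensin and 18.6, 18.3 and 17.8 CPM untreated, without overlap (0.35 ± 0.06, edgeR adjusted p = 0.000106). XYLT1, which starts the linker, rose by 0.33 ± 0.07 (edgeR adjusted p = 0.000691). After adjustment for GC content and exon length 1 of the 5 rose and 2 fell, with B4GALT7 at 0.13 and not called, XYLT2 at -0.02, B3GAT3 at -0.18 and B3GALT6 at -0.31. Without monensin replicate 3 or untreated replicate 2, and at an adjusted p under 0.01, 2 rose.

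Of 10 tested chondroitin and dermatan sulfate enzymes, 3 rose and 5 fell. CSGALNACT2, which adds the GalNAc that commits a chain to chondroitin, had 50.1, 49.1 and 40.1 CPM with monensin and 28.0, 28.3 and 29.8 CPM in untreated cells (0.69 ± 0.08, edgeR adjusted p = 8.07e-07). CSGALNACT1, a scarce isozyme, had 1.17, 1.20 and 1.41 CPM with monensin and 1.52, 1.72 and 2.39 CPM untreated, and its fall (-0.58 ± 0.21, edgeR adjusted p = 0.0268) was not called by DESeq2, under total counts alone, or without monensin replicate 1 or 2 or untreated replicate 3. CHSY1, a chondroitin synthase with the highest level per length of the role, fell by 0.25 on the log2 scale (SE 0.05, edgeR adjusted p = 0.000390). The sulfotransferases CHST11, CHST3 and CHST14, which sulfate chondroitin or dermatan, fell by 0.45, 0.39 and 0.39 on the log2 scale (0.60 for CHST14 after adjustment for GC content and exon length).

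CHST11 was at 85.1, 80.5 and 84.9 CPM with monensin and 112, 118 and 113 CPM untreated (edgeR adjusted p = 3.33e-07). CHST13, which sulfates the same position of chondroitin, rose by 0.30 (SE 0.07, edgeR adjusted p = 0.00195), but stood at -0.06 after adjustment for GC content and exon length. CHST7, which sulfates another position, passed 2-fold at 2.96, 3.28 and 2.96 CPM with monensin and 1.32, 1.11 and 1.17 CPM untreated (1.34 ± 0.17, edgeR adjusted p = 4.46e-06).

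Heparan sulfate enzymes fell more often than they rose, 7 (53.8%) against 4 (30.8%) of 13 tested. Over all genes tested, 33.7% fell and 34.1% rose. DESeq2 called 4 heparan sulfate enzymes lowered. GLCE, the epimerase that turns glucuronic into iduronic acid, had 13.5, 12.5 and 12.2 CPM with monensin and 16.7, 18.9 and 18.9 CPM untreated (-0.51 ± 0.08, edgeR adjusted p = 2.03e-05), or -0.26 after adjustment for GC content and exon length. HS2ST1, which sulfates that iduronic acid, had 32.0, 31.4 and 29 CPM with monensin and 37.2, 39.4 and 38.7 CPM untreated (-0.32 ± 0.06, edgeR adjusted p = 0.000156), and stood at -0.06 and was not called after that adjustment. Neither overlapped between groups. HS6ST2 had few reads and the lowest change of the role (-0.96 ± 0.32, edgeR adjusted p = 0.0141), a call that was lost in DESeq2 and without monensin replicate 2 or 3.

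Enzymes that act earlier on the heparan chain differed among themselves. NDST1, which removes the acetyl group of GlcNAc and adds sulfate in its place, had 64.8, 65.7 and 60.7 CPM with monensin and 45.8, 48.8 and 47.1 CPM untreated (0.43 ± 0.05, edgeR adjusted p = 2.31e-06). Of the 2 subunits of the polymerase, EXT1 rose (0.40 ± 0.12, edgeR adjusted p = 0.00765) and EXT2 fell (-0.16 ± 0.05, edgeR adjusted p = 0.00670). EXT2 had the highest level per length of the role. NDST3, a relative of NDST1, had 0.974, 0.800 and 0.514 CPM with monensin and 0.120, 0.0429 and 0.162 CPM untreated (2.75 ± 0.45, edgeR adjusted p = 5.91e-05). That rests on 57 and 8 reads, a ratio of 7.45 (95% exact Clopper-Pearson interval 3.54 to 18.1, counting error only). HS3ST3A1 and HS3ST3B1 both fell, but their near-identical sequences leave the split of reads uncertain.

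Among the remaining sulfotransferases and HNK-1 enzymes, 1 of 5 tested rose and 2 fell. CHST6, a keratan sulfate sulfotransferase on chromosome 16 from 75472052 to 75495445 (GRCh38, minus strand), had 10.7, 9.68 and 9.68 CPM with monensin and 4.61, 3.56 and 3.16 CPM untreated. All monensin libraries were above all untreated ones (1.40 ± 0.12, edgeR adjusted p = 6.05e-08), and its window holds ACGTGGC just after the start. CHST4, which sulfates selectin ligands, had 0.467, 0.240 and 0.471 CPM with monensin and 1.28, 1.76 and 1.34 CPM untreated (-1.88 ± 0.29, edgeR adjusted p = 2.90e-05). CHST10, the HNK-1 sulfotransferase, averaged 37.5 ± 1.25 CPM with monensin and 41.6 ± 0.973 CPM untreated. Its fall (-0.15 ± 0.05, edgeR adjusted p = 0.0193) was not called under total counts alone (-0.07) or without monensin replicate 1 (-0.13) or untreated replicate 1 (-0.14).

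Several related enzymes shifted relative to each other. The ratio of their reads within a library does not depend on library scaling and is not corrected for gene length or GC content. The 8 pairs, whose partners moved apart before adjustment for GC content and exon length, were chosen after their values were seen. The ratios are thus a description with no test. After that adjustment MGAT4B (0.16) and MGAT4A (0.12) were close on the log2 scale, and CHST13 (-0.06) and CHST11 (-0.45) were both below 0. MAN2A2 (0.22) and MAN2A1 (-0.34) stayed on opposite sides, as did B4GALT1 (0.37) and B4GALT2 (-0.75). MAN2A2 gave 1.76 ± 0.123 reads per read of MAN2A1 with monensin and 0.891 ± 0.0475 in untreated cells. B4GALT1 over B4GALT2 was 2.19 ± 0.270 with monensin and 1.12 ± 0.0476 untreated. B3GNT8 over B3GNT7 was 0.356 ± 0.0333 with monensin and 0.0858 ± 0.00417 untreated, a ratio of means of 4.15. ST3GAL6 over ST3GAL4 was 0.613 ± 0.0503 with monensin and 0.215 ± 0.00839 untreated. CSGALNACT2 over CSGALNACT1 was 37.4 ± 7.90 with monensin and 15.8 ± 3.01 untreated. MGAT4B over MGAT4A (3.94 ± 0.524 with monensin, 2.69 ± 0.215 untreated) and CHST13 over CHST11 (0.334 ± 0.0179 with monensin, 0.200 ± 0.0220 untreated) had smaller ratios of means, 1.46 and 1.68.

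**Figure D4:**
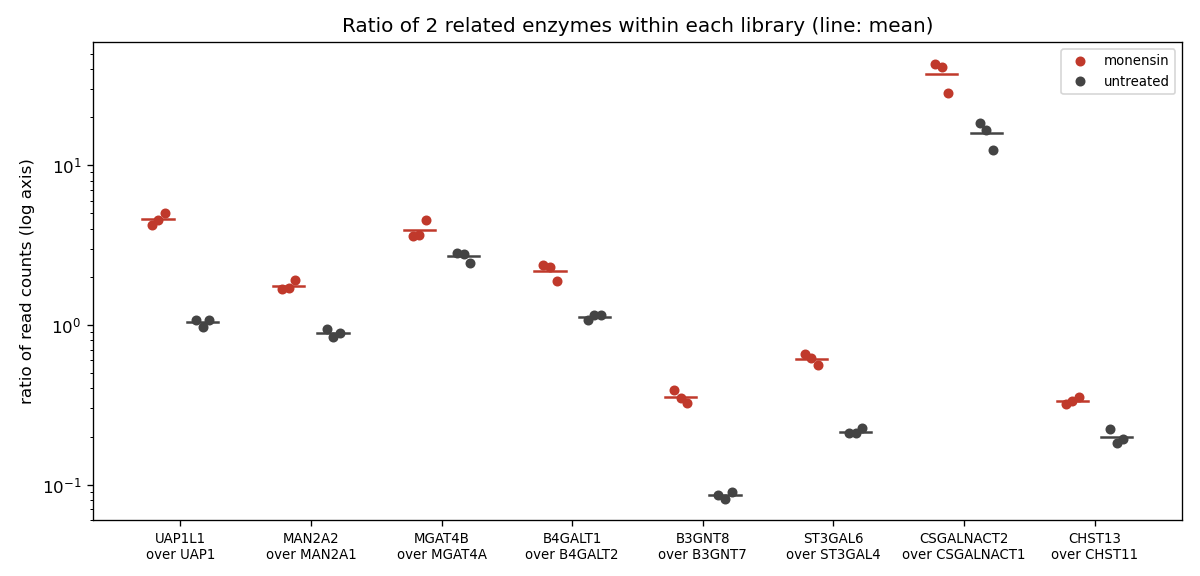
Ratio of the reads of 2 related enzymes within each library, on a log axis (points; monensin red and left, untreated grey and right; line for the mean). In all 8 pairs every monensin library lies above every untreated library, from 1.46 times in the means for MGAT4B over MGAT4A to 4.39 times for UAP1L1 over UAP1.

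Genes known from the Golgi stress response were followed as lists by branch, and these lists share members with the family. All 11 genes listed for the TFE3 branch rose (median 1.16 on the log2 scale), among them the members ST3GAL1, ST3GAL6, FUT1 and UAP1L1. Because Golgi stress genes were already known to be raised in these libraries, this count is not independent support. Genes of the branch outside the family include NEU1, a lysosomal sialidase that removes sialic acid, at 295 ± 5.34 CPM with monensin and 68.0 ± 2.04 CPM untreated (2.11 ± 0.04, edgeR adjusted p = 3.41e-15), and GOLGA2, a Golgi matrix protein, at 110 ± 3.61 CPM with monensin and 51.1 ± 0.774 CPM untreated (1.11 ± 0.05, edgeR adjusted p = 1.51e-11). WIPI1 (3.23), RAB20 (1.88), STX3 (1.16), GOLGB1 (0.71) and ACBD3 (0.46) rose too, as log2 fold changes.

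The other branches did not move as blocks. Of 5 genes of the proteoglycan branch, CSGALNACT2 and B3GAT3 rose, GLCE fell, and NDST2 and HS6ST1 were not called. The reads of NDST2 are few and uncertain, since 82.9% of its exonic bases lie under AC022400.6 on the same strand. The rise of B3GAT3 (0.14 ± 0.06, edgeR adjusted p = 0.0345) was not called by DESeq2, without a filter or without monensin replicate 3 or untreated replicate 2 or 3, and it turned to a fall of 0.18 after adjustment for GC content and exon length, when 3 of the 5 genes fell. Of the mucin branch GALNT18 fell, a gene which the stricter filter leaves untested, and GALNT5 and GALNT8 had too few reads to be tested.

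Of 10 transcription factors linked to Golgi stress, 8 rose (median 0.68 on the log2 scale), against 34.1% of all genes tested. They were listed with earlier results of these data known, so this count is not independent support. The activity of these factors was not measured. TFE3 had 65.8, 64.7 and 65.5 CPM with monensin and 40.9, 41.1 and 38.2 CPM untreated (0.71 ± 0.05, edgeR adjusted p = 6.16e-09), and its relative TFEB rose by 0.66. CREB3 (0.96), KLF2 (0.85), KLF4 (0.25) and MLX (0.11) also rose, the last pair not called after adjustment for GC content and exon length, as did ATF4 (1.76) and XBP1 (1.26), which are known for the stress response of the endoplasmic reticulum. ETS1 fell (-0.40 ± 0.07, edgeR adjusted p = 5.88e-05), and MITF was not called at 5.86 ± 1.04 CPM with monensin and 5.72 ± 0.458 CPM untreated.

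Upstream of the family, 13 of 29 tested genes linked to the supply of nucleotide sugars and sulfate donor rose and 9 fell (median 0.08). Of all genes tested, 34.1% rose and 33.7% fell. Not every gene of this list makes a donor. AMDHD2, a deacetylase of GlcNAc phosphate, had 31.9, 31.6 and 32.8 CPM with monensin and 7.34, 7.08 and 7.24 CPM untreated (2.15 ± 0.07, edgeR adjusted p = 5.33e-13). NAGK, which phosphorylates salvaged GlcNAc, rose by 1.05 ± 0.06 (edgeR adjusted p = 3.28e-10), and GMPPA, a partner of the enzyme that makes GDP-mannose, by 1.01 ± 0.05 (edgeR adjusted p = 1.33e-10). Of 26 tested genes that make and transfer the precursor of N-glycans in the endoplasmic reticulum, 10 rose and 8 fell (median 0.01), beside those same all-gene shares. The glucosyltransferases ALG10 (-0.94), ALG6 (-0.75) and ALG8 (-0.57), which complete that precursor, were among those that fell.

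Further Golgi glycosyltransferases outside the naming rule were evenly split, 6 raised and 6 lowered of 17 tested, beside 34.1% and 33.7% of all genes tested. CHPF2 and CHPF, partners in chondroitin polymerisation, rose by 1.36 ± 0.05 (edgeR adjusted p = 6.62e-12) and 0.92 ± 0.05 (edgeR adjusted p = 4.39e-10). B3GALNT2, which extends the sugar of dystroglycan, fell (-1.04 ± 0.07, edgeR adjusted p = 1.65e-09). Of 18 tested genes that hold enzymes in the Golgi or set its ion balance, 3 rose and 6 fell, beside the same all-gene shares. Under total counts alone 2 fell, and after adjustment for GC content and exon length 7 rose. COG6 (0.63) and COG3 (0.33), subunits of the tethering complex that returns enzymes within the Golgi, rose, and ATP6V0A2, a subunit of the proton pump, fell (-0.28).

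Of 20 tested core proteins that carry glycosaminoglycan chains, 8 rose and 4 fell (median 0.14), beside 34.1% and 33.7% of all genes tested. CSPG4 had 15.9, 18.0 and 17.7 CPM with monensin and 33.1, 38.7 and 40.9 CPM untreated (-1.13 ± 0.08, edgeR adjusted p = 5.85e-09). SDC3, a syndecan, and AGRN, the heparan sulfate proteoglycan agrin, rose by 1.08 ± 0.06 (edgeR adjusted p = 6.28e-10) and 0.96 ± 0.06 (edgeR adjusted p = 5.40e-10).

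The authors' deposited table of 2410 regulated genes holds 21 members, 15 higher and 6 lower with monensin. It includes all 17 members called at least 2-fold here, and B3GNT7, given there as -1.0 on the log2 scale. The other 3 (FUT3, SLC35G5 and GALNT4) had too few reads to be tested here. SLC35G5, which has near-identical copies, had 28 reads under monensin and 4 untreated, a ratio of 7.32 (95% exact Clopper-Pearson interval 2.56 to 28.7, counting error only).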

How the data were processed

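RNA of 6 THP-1 samples was sequenced as single reads of 75 nt from directional libraries, per the labels' protocols. The authors deposited raw counts of reads per gene; the submitters' processing notes name HISAT2 2.1.0, HTSeq 0.11.1, Trimmomatic 038, bcl2fastq and DESeq2 1.22.2, with build hg38. Neither annotation release nor strand setting is given in the sources used here. A list of regulated genes with log2 fold changes, also deposited by the authors, was copied and not tested.

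Tally lines for reads assigned to no single gene (no feature, ambiguous or not uniquely aligned), 21.6% ± 0.398 of alignments in monensin and 19.3% ± 0.388 in untreated libraries, were left out. Members and lists were chosen with earlier results of these data known. Positions, exonic lengths and GC content came from GENCODE 29 (GRCh38), which held 99.79% of the identifiers. The quasi-likelihood F test of edgeR 4.0.16 (R 4.3.3) was run on the counts after filterByExpr and TMM, with treatment as the only term, and adjusted by Benjamini-Hochberg over 16542 genes. Standard errors came from the coefficient and its F statistic. CPM uses TMM-adjusted library sizes, as mean ± SD of 3 libraries. The fit was tested on simulated data. No 2 libraries were identical, and nothing says that replicates were separate cultures, so p-values measure a spread that may be technical.

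The naming rule took every member past 2-fold, the member of each role with the highest level per length and the highest and lowest change, UAP1, UAP1L1, GLCE, HS2ST1, all stress branch members, and up to 3 genes of each other list. Other members and transcription factors were named after their values were seen. Alternatives were DESeq2 1.42.0, RLE size factors or total counts alone for scaling, all genes kept, genes kept at 1 CPM in 3 libraries with 50 reads, a replicate block, an adjusted p under 0.01, smooth trends on GC content and exon length taken out per library, and each library left out; leaving libraries out of the read ratios was added after seeing the data.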

Additional observations from a re-analysis of the deposited data

Results flagged for a closer look

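Outside the gene counts, the deposited tallies differed between groups. Alignments in no annotated gene made up 10.9% ± 0.441 of all tallied alignments in monensin libraries and 8.80% ± 0.191 in untreated libraries (mean ± SD, n = 3 each). Single libraries held 11.1%, 11.2% and 10.4% with monensin, all above the 8.99%, 8.61% and 8.81% of untreated libraries. The part of this difference in the member results was not tested.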

How the results depend on the processing

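Over the alternatives, 42 to 50 members were raised and 36 to 49 lowered, against 46 and 47. Of the 93 called members, 66 kept their call under every alternative run and 75 under all other than adjustment for GC content and exon length; all 17 members past 2-fold kept theirs. That adjustment turned the sign of 11 members that were called either before or after it, to -0.018 for XYLT2, 0.12 for MGAT4A, 0.012 for UAP1, 0.17 for SLC35A3, -0.077 for ST6GALNAC4, -0.18 for B3GAT3, -0.043 for SLC35B2, 0.061 for EXTL2, -0.31 for B3GALT6, -0.058 for CHST13 and 0.12 for MAN1A2. It also turned 4 members called in neither (FUT8, SLC35E3, CHST12 and GALNT3). No other alternative turned the sign of a called member; uncalled members near 0, such as SLC35C2 and FUT11 under total counts alone, did change sign. Across genes, the change had a correlation with GC content of 0.07 over tested members and 0.22 over all tested genes. Total counts alone moved the median of members to -0.03 on the log2 scale and that of all genes to 0.11. The cause of these shifts was not tested.

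Counts that moved by more than 1.5 times were the following. After adjustment for GC content and exon length, lowered genes numbered 3 for N-glycan processing (5 as reported), 0 for UDP-GlcNAc pyrophosphorylases (1 as reported), 2 for the linker (0 as reported) and 3 for the proteoglycan branch (1 as reported), and raised genes 1 for the linker (4 as reported), 1 for the proteoglycan branch (2 as reported) and 7 for Golgi retention (3 as reported). Under total counts alone, lowered genes numbered 3 for N-glycan processing, 0 for pyrophosphorylases, 1 for other sulfotransferases (2 as reported) and 2 for Golgi retention (6 as reported). DESeq2 lowered 4 heparan sulfate genes (7 as reported) and raised 1 of the proteoglycan branch. Without a filter 2 fucosyltransferases (1 as reported) and 1 proteoglycan branch gene were raised; the stricter filter left 0 raised fucosyltransferases, 0 lowered pyrophosphorylases and 0 lowered mucin branch genes (1 as reported), with fewer genes tested. At an adjusted p under 0.01, lowered genes were 0 for pyrophosphorylases and 1 for other sulfotransferases, and raised genes 2 for the linker and 1 for the proteoglycan branch. With single libraries left out, raised members ran from 44 to 48 and lowered members from 44 to 45. Ranges were 0 to 1 lowered pyrophosphorylases, 1 to 2 raised fucosyltransferases, 2 to 4 raised linker genes, 1 to 2 lowered other sulfotransferases and 1 to 2 raised proteoglycan branch genes.

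Replicate numbers were shared by the groups, and no sign of pairing was seen. Deviations of same-numbered libraries had correlations of -0.12, 0.14 and 0.04, and those of differently numbered libraries ran from -0.20 to 0.16. So few values cannot exclude a pairing. With a replicate block, 45 members rose and 45 fell; pyrophosphorylases lowered became 0 and proteoglycan branch genes raised 1. Members with few reads, such as FUT1, NDST3, GALNT13 and GALNT18, are limited by depth.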
